A study of Rattus norvegicus with 24 samples.

Results

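A set of 7 genes of glutamate, glutamine and amino acid handling were followed in microvessels isolated from the rat brain cortex. They were the carriers Slc1a1, Slc38a3, Slc38a5, Slc7a5, Slc3a2 and Slc7a1 and the enzyme gene Glul. Every array feature (probe, here a set of short oligonucleotides for 1 transcript) whose only gene symbol in the platform annotation was one of these 7 was taken, which gave 12 of 31099 probes. RNA was measured on 24 arrays, 8 in each group. HAL and HEP rats both received a portocaval anastomosis, which shunts portal blood around the liver, and 24 h later either a hepatic artery ligation (HAL) or a total hepatectomy (HEP), as models of acute liver failure. Sham rats went through 2 steps of mock surgery and had no anastomosis. All were killed 8 to 12 h after the last operation. Strain, sex and age are not given in the sources used here. Whether the arrays are of separate rats is not stated in the labels, so p-values measure only the spread between arrays. The microvessels are a mixture of cells, in which fewer cells of a type and less RNA per cell cannot be told apart.

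A failing liver no longer clears ammonia from the blood, and in brain ammonia is bound by glutamine synthetase, the product of Glul, which joins it to glutamate to form glutamine, mainly in astrocytes. The endothelium of brain capillaries carries amino acids between blood and brain through transporters on its 2 membranes. Carriers of glutamate and of glutamine help to move these amino acids out of the brain, while carriers for large neutral and cationic amino acids supply it.

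The table holds only the decimals of each log2 signal, so the number of digits decided what could be read. Signals below 10 carry 9 decimals and higher ones 8, and zeros at either end are lost. For the 5 member probes with 1 to 14 cells of 9 digits among the 24 arrays (called near 10), 9 digits were taken as a signal of 9 plus the decimals, 8 digits as 10 plus the decimals, and shorter cells as missing. Only a cell of 9 digits is certain to lie below 10. A value below 10 that lost 1 zero is read at least 1 unit too high, and a signal beyond 9 or 11 is misread by whole units. Differences are therefore not exact folds. For the other 7 member probes only decimals could be compared, as positions on a circle of 1 log2 unit, so their differences are known only up to whole units. Of these, 5 had no cell of 9 digits (at or above 10) and 2 had at least 15 (below 10). Decimals were tested where they clustered within groups (mean resultant length of at least 0.6, where 1 means identical decimals), which 3 of the 7 did.

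Of the 5 near-10 member probes, 2 passed an adjusted p of 0.05 in HAL minus Sham, where 3.72% of all 2526 near-10 probes passed. These were one Slc1a1 probe, which rose, and the Slc38a5 probe, which fell. In HEP minus Sham 1 of the 5 passed, the same Slc1a1 probe, against 2.18% of all probes. That background was 29 to 35 probes in place of 55 without Sham array 6 or HEP array 4, 5, 6 or 7, each left out singly, and 137 without HEP array 8. In HAL minus HEP 0 of the 5 passed, and 0% of all near-10 probes did, although 216 had an unadjusted p under 0.05 in limma. Among the 3 tested members at or above 10, Slc7a1 probe 1 passed in HAL minus Sham and in HEP minus Sham, where 20.4% and 13.9% of all 834 probes passed. There 0 of 3 passed in HAL minus HEP, against 3.48%. Calls against Sham were thus common among all probes at or above 10. The median difference of the 5 near-10 member probes was -0.02 log2 units in HAL and 0.43 in HEP, beside -0.03 and 0.00 over all near-10 probes. Both contrasts with Sham use the same 8 Sham arrays. HAL array 2 had the lowest readings over all near-10 probes, with a median deviation from the probe means of -0.15, against -0.07 to 0.03 on the other arrays, and no member call changed without it.

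**Figure D1:**
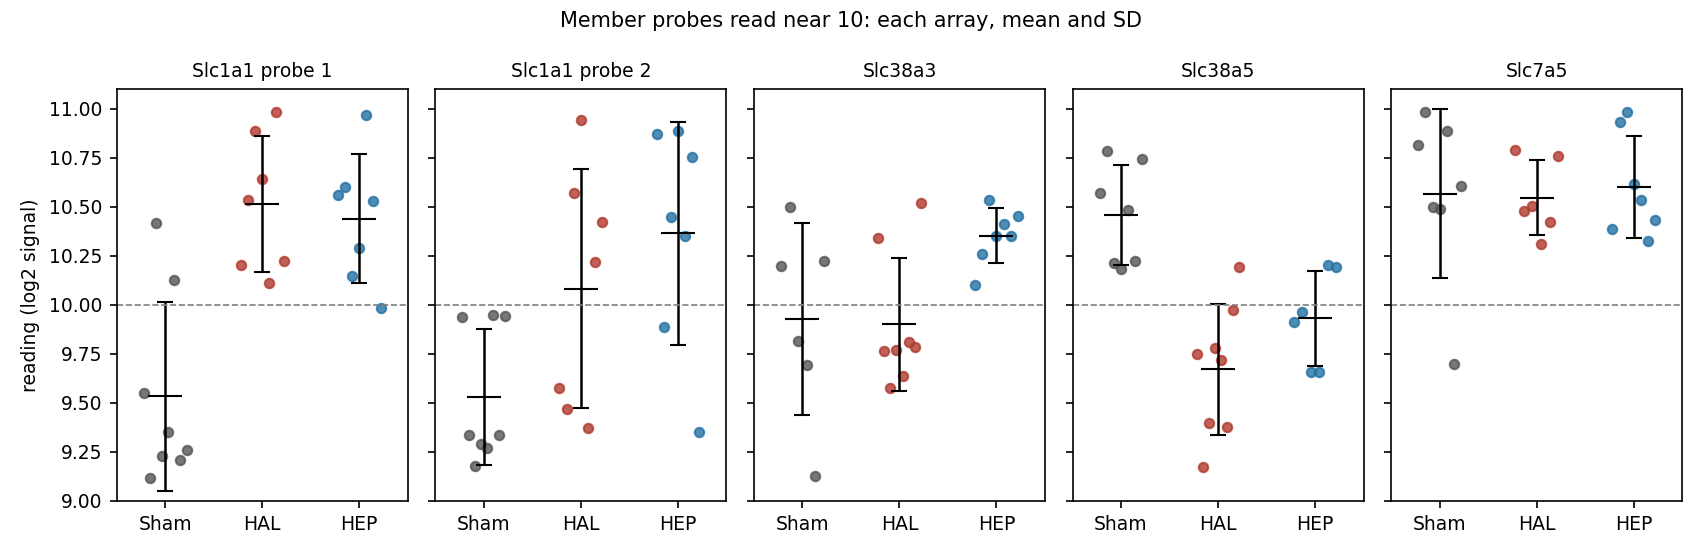
Readings (log2 signal) of the 5 near-10 member probes on each array, by group, with mean and SD as bars; arrays with a short cell are missing and the dashed line marks 10. Slc1a1 readings lie lowest in Sham, and 7 of 8 HAL readings of Slc38a5 lie under every Sham reading.

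Slc1a1 encodes the excitatory amino acid carrier that takes up glutamate and aspartate with sodium. On its first probe (1370367_at) the 8 Sham readings ran from 9.12 to 10.42 with a median of 9.30. The 7 HAL readings ran from 10.11 to 10.98 with a median of 10.53, and the 7 HEP readings from 9.98 to 10.97 with a median of 10.53. Most Sham arrays were thus low, but Sham arrays 3 and 6, read at 10.42 and 10.13, overlapped both liver failure groups. With a lost leading zero their cells would read 9.04 and 9.01. The same applies to the HAL and HEP cells of 8 digits. With a lost leading zero these would read 9.01 to 9.10, below every Sham cell of 9 digits. The direction of this difference thus rests on reading 8 digits as 10 plus the decimals. Cells of 9 digits were found on 6 of 8 Sham arrays, 0 of 8 HAL arrays and 1 of 8 HEP arrays.

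The mean reading was 9.53 ± 0.48 in Sham (SD, n = 8), 10.51 ± 0.35 in HAL (n = 7) and 10.44 ± 0.33 in HEP (n = 7). Slc1a1 probe 1 rose in HAL by 0.98 log2 units (SE 0.20, 95% interval 0.56 to 1.40, adjusted p = 0.00682 in limma). The exact permutation test of these arrays gave p = 0.00218. In HEP it rose by 0.91 (SE 0.20, 95% interval 0.49 to 1.32, adjusted p = 0.0176 in limma), with p = 0.00295 in the exact permutation test. Both calls held with any 1 array left out (adjusted p of at most 0.0198 in HAL and 0.0467 in HEP). The digit counts alone, compared by Fisher's exact test, gave p = 0.00699 for HAL and p = 0.0406 for HEP, which became 0.239 and 0.653 after adjustment over all near-10 probes. HAL and HEP stood next to each other and differed by 0.07 (95% interval -0.36 to 0.50, adjusted p = 0.956 in limma).

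The second Slc1a1 probe (1387932_at) also had its lowest mean in Sham, but its groups overlapped more. Its Sham readings, all from cells of 9 digits, ran from 9.17 to 9.95 with a median of 9.34. In HAL they ran from 9.37 to 10.94 (median 10.22, n = 7) and in HEP from 9.35 to 10.89 (median 10.45, n = 7). Both liver failure groups were spread over the whole range, with 3 and 2 cells of 9 digits. The difference from Sham was 0.55 in HAL (SE 0.25, adjusted p = 0.257) and 0.84 in HEP (SE 0.25, adjusted p = 0.0848), and neither passed. Without HEP array 8, the lowest of its group at 9.35, the HEP difference was 1.00 and passed (adjusted p = 0.012). With integer parts chosen by a model the HEP difference was 0.42 (adjusted p = 0.286), because 3 HEP cells of 8 digits were then read below 10. Taken singly, the exact permutation test gave p = 0.0477 for HAL and p = 0.00824 for HEP.

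**Figure D2:**
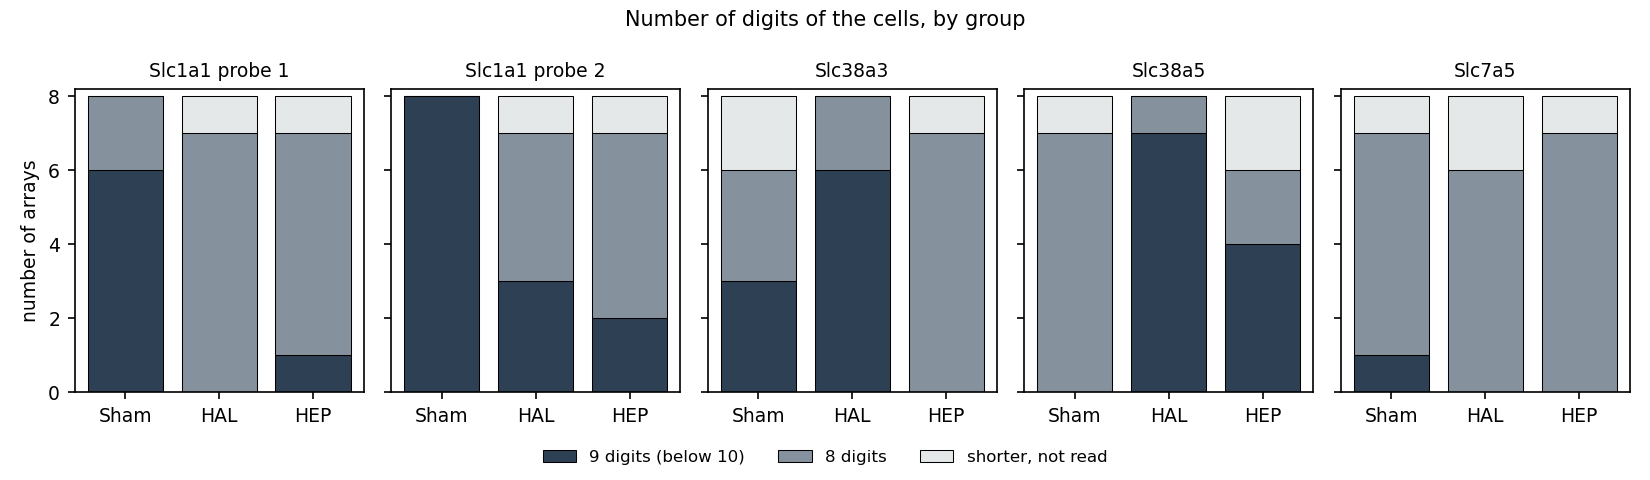
Number of arrays (of 8 a group) whose cell had 9 digits, 8 digits or fewer, for the 5 near-10 member probes. Cells of 9 digits, which can only be values below 10, were most frequent in Sham for both Slc1a1 probes and in HAL for Slc38a5 and Slc38a3.

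The near-10 probes of other genes whose readings were most like those of Slc1a1 probe 1 belonged to Pfdn2, Usp11 and Sema6b. Their Pearson correlations with it were 0.81 over 18 shared arrays, 0.80 over 20 and 0.76 over 20, the highest of 1399 candidate probes, and these points share the arrays, the groups and the way digits were read. Pfdn2 encodes a prefoldin subunit, Usp11 a deubiquitinase and Sema6b a semaphorin. Chosen for this likeness, they had differences from Sham of 0.35, 0.58 and 0.65 in HAL and 0.34, 0.34 and 0.71 in HEP, given as a description.

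Slc38a5 and Slc38a3 encode the system N carriers, which move glutamine, histidine and asparagine with sodium in exchange for protons. Slc38a5 (1387970_at) read 10.18 to 10.78 in Sham, with a median of 10.48 over 7 arrays. In HAL the 8 readings ran from 9.17 to 10.19 with a median of 9.73, and in HEP the 6 readings ran from 9.65 to 10.20 with a median of 9.94. HAL and Sham overlapped only through HAL array 8 (10.19). The other 7 HAL arrays had cells of 9 digits, against 0 of 8 in Sham and 4 of 8 in HEP. With a lost leading zero the Sham cells of 8 digits would read 9.02 to 9.08, below every HAL cell of 9 digits. The direction of the Slc38a5 difference thus rests on reading 8 digits as 10 plus the decimals.

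The mean fell from 10.46 ± 0.26 in Sham (SD, n = 7) to 9.67 ± 0.34 in HAL (n = 8), a difference of -0.79 (SE 0.16, 95% interval -1.11 to -0.46, adjusted p = 0.00633 in limma). The exact permutation test gave p = 0.000466. Leaving out any 1 array kept the HAL call, with adjusted p of at most 0.0158. Fisher's exact test of the digit counts gave p = 0.0014, or 0.0982 after adjustment over near-10 probes. In HEP the mean was 9.93 ± 0.24 (n = 6), which was 0.53 below Sham (SE 0.17, adjusted p = 0.102 in limma) and did not pass, although the exact permutation test of these arrays alone gave p = 0.00583. HAL and HEP did not differ beyond their spread (difference -0.26, 95% interval -0.60 to 0.08, adjusted p = 0.702 in limma). A difference between the 2 models was therefore not shown, even though one contrast with Sham passed and the other did not.

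The probes most like Slc38a5 among 1159 candidates were those of Sh2b3, Hspa12b and Exoc2, with correlations of 0.83, 0.82 and 0.81 over 18, 18 and 20 arrays. Sh2b3 encodes an adaptor protein of cytokine receptor signalling, Hspa12b a heat shock protein of endothelial cells and Exoc2 a subunit of the exocyst. Their differences from Sham, which their choice by likeness to Slc38a5 bears on and which are given as a description, were -0.54, -0.72 and -0.55 in HAL and -0.28, -0.55 and -0.30 in HEP.

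Slc38a3 (1370824_at), the other system N gene, had a different order of groups. Its readings ran from 9.12 to 10.50 in Sham (median 10.01, n = 6), from 9.58 to 10.52 in HAL (median 9.78, n = 8) and from 10.10 to 10.54 in HEP (median 10.35, n = 7). HEP was the tightest group, and 6 of 8 HAL arrays lay below all 7 HEP arrays that could be read. Cells of 9 digits numbered 3 in Sham, 6 in HAL and 0 in HEP. The means were 9.93 ± 0.49, 9.90 ± 0.34 and 10.35 ± 0.14 (SD). HAL minus HEP was -0.45 (SE 0.18, 95% interval -0.82 to -0.08). Its exact permutation test gave p = 0.0087. Fisher's exact test of the digits gave p = 0.00699, which did not pass after adjustment over near-10 probes. In limma the difference did not pass over all near-10 probes either (adjusted p = 0.57). HEP was 0.43 above Sham (adjusted p = 0.299) and HAL differed from Sham by -0.03 (adjusted p = 0.976), so neither contrast with Sham passed.

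Slc7a5 and Slc3a2 encode the light and the heavy chain of the exchanger for large neutral amino acids, the route of leucine, phenylalanine and tryptophan into brain. Slc7a5 (1387280_a_at) read 9.70 to 10.98 in Sham (median 10.60, n = 7), 10.31 to 10.79 in HAL (median 10.49, n = 6) and 10.32 to 10.98 in HEP (median 10.53, n = 7). All 3 groups overlapped, and the lowest value came from Sham array 7, the only cell of 9 digits. The means were 10.57 ± 0.43, 10.54 ± 0.19 and 10.60 ± 0.26 (SD). HAL differed from Sham by -0.02 (95% interval -0.40 to 0.35, adjusted p = 0.98 in limma) and HEP by 0.03 (95% interval -0.33 to 0.40, adjusted p = 0.971 in limma).

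Slc3a2 (1398771_at) had no cell of 9 digits and was compared by its decimals. These ran from 0.24 to 0.53 in Sham (median 0.39), 0.22 to 0.62 in HAL (median 0.40) and 0.37 to 0.60 in HEP (median 0.49), with 8 arrays in each. The groups overlapped throughout. Differences from Sham were 0.02 in HAL (95% interval -0.10 to 0.15, adjusted p = 0.816 in limma) and 0.09 in HEP (95% interval -0.04 to 0.22, adjusted p = 0.37 in limma). Neither chain of the exchanger passed in any of the 3 contrasts. For Slc3a2 a change by whole units could not be seen.

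Slc7a1 encodes the cationic amino acid carrier for arginine, lysine and ornithine, and its transcription is known to respond to amino acid supply. On its first probe (1368391_at, at or above 10) the decimals ran from -0.17 to 0.32 in Sham (median 0.14), where values below 0 are decimals placed 1 unit lower to keep the group together. They ran from 0.38 to 0.65 in HAL (median 0.56) and from 0.14 to 0.84 in HEP (median 0.60). HAL and Sham did not overlap on this placement. In HEP 7 of 8 arrays lay above every Sham array and HEP array 8 (0.14) lay among the Sham values. Of the Sham cells 4 of 8 were short, and their zeros were placed by the probe's centre without regard to group.

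The mean decimals were 0.09 ± 0.19 in Sham, 0.53 ± 0.10 in HAL and 0.55 ± 0.21 in HEP (SD, n = 8 each). The shift from Sham was 0.44 in HAL (SE 0.08, adjusted p = 5.47e-05 in limma) and 0.46 in HEP (SE 0.08, adjusted p = 2.82e-05 in limma). On the circle these are as well -0.56 and -0.54, and with shifts so close to 0.5 the direction of Slc7a1 probe 1 was not settled. Arrays were placed around the centre of their own group before the fit, so the limma p-values against Sham can be too small. On this placement the means of HAL and HEP stood apart from the Sham mean. HAL and HEP lay together (difference -0.02, 95% interval -0.17 to 0.13, adjusted p = 0.916 in limma). The exact permutation test of resultant lengths had p = 0.000466 for HAL and p = 0.0191 for HEP. That test needs no placement around a group centre and gives no direction, but it uses the zeros placed in short cells. The exact permutation test of values placed around 1 centre for both groups gave differences of 0.07 and 0.09 (p = 0.612 and p = 0.551), since that placement divides the Sham cluster. Its mean resultant length of 0.613 was just inside the limit of 0.6.

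**Figure D3:**
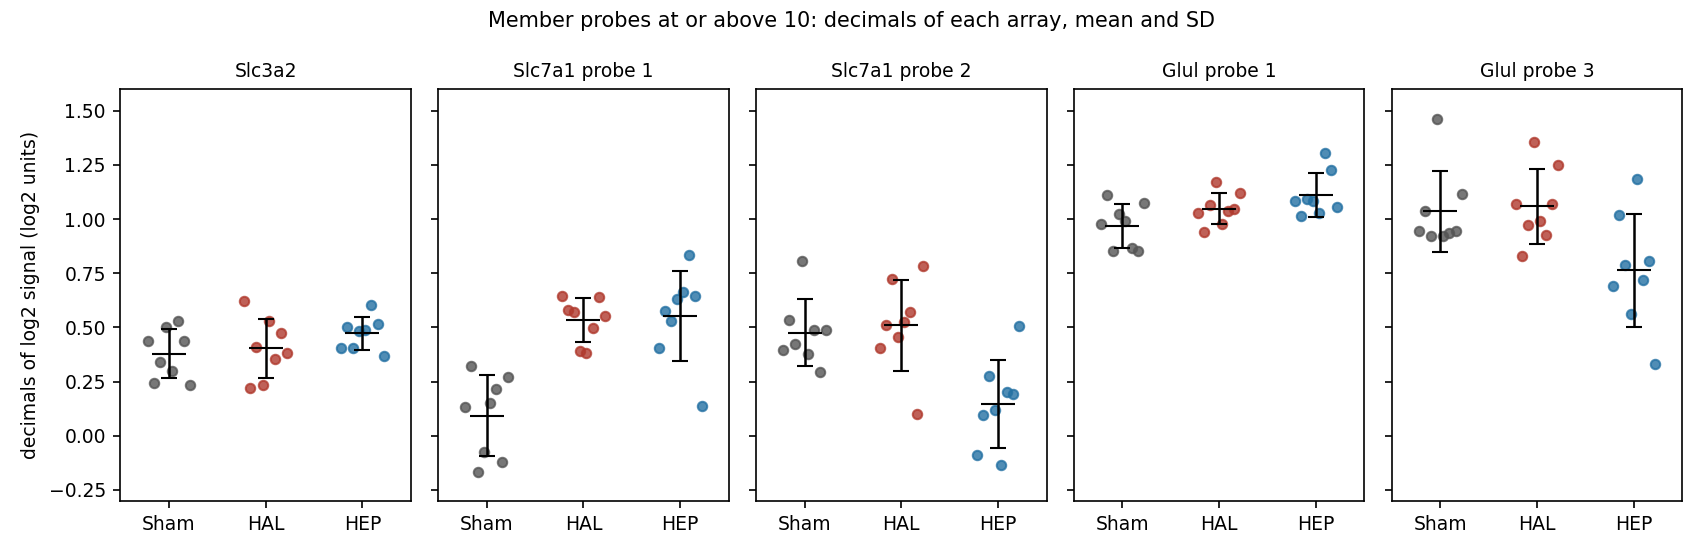
Decimals (log2 units, known up to whole units) of the 5 member probes at or above 10 on each array, with mean and SD, HAL and HEP placed nearest Sham. The Sham values of Slc7a1 probe 1 lie below all HAL values, 7 of 8 HEP values of Slc7a1 probe 2 lie below all Sham values, and the Slc3a2 groups overlap throughout.

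The other Slc7a1 probes had decimals too scattered for the test and gave another picture. Probe 2 (1368392_at, at or above 10, mean resultant length 0.558) had mean decimals of 0.48 ± 0.15 in Sham, 0.51 ± 0.21 in HAL and 0.15 ± 0.20 in HEP (SD, n = 8 each). Here HEP rather than Sham stood apart, with 7 of 8 HEP arrays below every Sham array. The HEP shift was -0.33, or 0.67 on the other way around the circle, and the exact permutation test of resultant lengths gave p = 0.00637. The exact permutation test of values placed around 1 centre gave a HEP difference of -0.08 (p = 0.535). With a limit of 0.5 on the resultant length the HEP shift passed (adjusted p = 0.0067 in limma), and with short cells left out it passed with the opposite sign (0.35, adjusted p = 0.00819 in limma). Probe 3 (1387167_at, below 10, mean resultant length 0.488) had means of 0.42, 0.30 and 0.47 in Sham, HAL and HEP, with overlapping groups. The 3 probes of Slc7a1 therefore do not give 1 pattern.

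Promoter sequences are shown for Slc7a1 and Slc38a5, the called members of the set with an entry in RefSeq's table (assembly GRCr8, used for sequence only), to set a gene with an amino acid response motif beside one without. Entries were found for 5 of the 7 members, not for Slc1a1 and Slc38a3. Each run is the 250 bases before the gene's start, 5′ to 3′ on the gene's strand, at chr12:11664238-11664487 (plus strand) for Slc7a1 and chrX:16894471-16894720 (minus strand) for Slc38a5. Capitals mark the motif.
Slc7a1: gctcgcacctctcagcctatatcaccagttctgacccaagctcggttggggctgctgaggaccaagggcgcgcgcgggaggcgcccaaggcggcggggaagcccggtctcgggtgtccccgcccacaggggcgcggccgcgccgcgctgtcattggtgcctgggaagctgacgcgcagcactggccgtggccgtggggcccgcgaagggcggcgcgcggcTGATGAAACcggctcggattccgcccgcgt
Slc38a5: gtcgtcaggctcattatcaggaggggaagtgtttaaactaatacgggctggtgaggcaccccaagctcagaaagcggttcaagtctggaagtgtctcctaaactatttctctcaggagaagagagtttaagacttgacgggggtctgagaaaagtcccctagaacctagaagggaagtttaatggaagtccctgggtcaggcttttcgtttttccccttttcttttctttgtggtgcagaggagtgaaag

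The motif searched on both strands was TGATGNAAN, bound by ATF4 and its partners in genes that respond to a lack of amino acids. Slc7a1 held it once, as TGATGAAAC on the gene's strand with its first base 30 bases before the start. The windows of Slc38a5, Slc7a5, Slc3a2 (2 entries) and Glul (2 entries) did not hold these letters. Of all 33469 windows of the same length from RefSeq, 3.38% did. A match is a description of the sequence and not a binding site.

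Glul, the enzyme gene, had 3 probes, of which 1 was tested. On probe 1 (1367632_at, at or above 10) the decimals ran from 0.85 to 1.11 in Sham (median 0.98), 0.94 to 1.17 in HAL (median 1.04) and 1.02 to 1.30 in HEP (median 1.08), where values above 1 continue past the next whole unit. The groups overlapped, with 2 HEP arrays above every Sham array. The means were 0.97 ± 0.10, 1.05 ± 0.07 and 1.11 ± 0.10 (SD, n = 8 each). HAL differed from Sham by 0.08 (SE 0.06, adjusted p = 0.384 in limma) and HEP by 0.14 (SE 0.06, 95% interval 0.02 to 0.26, adjusted p = 0.107 in limma), so neither passed. Taken singly, the exact permutation test gave p = 0.0974 for HAL and p = 0.0137 for HEP. In HEP 6 of 8 cells were short, and their zeros had to be placed. With short cells left out the HEP difference was 0.32 and passed (adjusted p = 0.0307 in limma). That fit kept only 2 HEP arrays, the highest of the group at 1.30 and 1.23. Decimals just above a whole unit lose a zero and are the ones left out, so this difference is raised by the omission. With array weights the HEP difference was 0.15 and passed (adjusted p = 0.0486 in limma).

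Glul probe 3 (1386870_at, at or above 10, mean resultant length 0.515) was below the limit of 0.6, and its HEP difference had the opposite sign to that of probe 1. Its mean decimals were 1.03 ± 0.19 in Sham, 1.06 ± 0.17 in HAL and 0.76 ± 0.26 in HEP (SD, n = 8 each), and 6 of 8 HEP arrays lay below every Sham array. The HEP shift was -0.27, or 0.73 the other way around. Both the count and the shift of -0.27 rest on the placement of Sham array 4 at 1.46, far from the other Sham arrays. On the circle this array could as well stand 1 unit lower, below most HEP arrays. The count and the size of the shift would then be smaller. The exact permutation test of resultant lengths gave p = 0.121. With a limit of 0.5 the shift passed (adjusted p = 0.0374 in limma), and with no limit it did not (adjusted p = 0.0536 in limma). Glul probe 2 (1367633_at, below 10) had a mean resultant length of 0.342 and decimals spread over most of the circle, with means of 0.59, 0.50 and 0.51 that carry no comparison. No direction for Glul was thus shared by its probes.

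**Figure D4:**
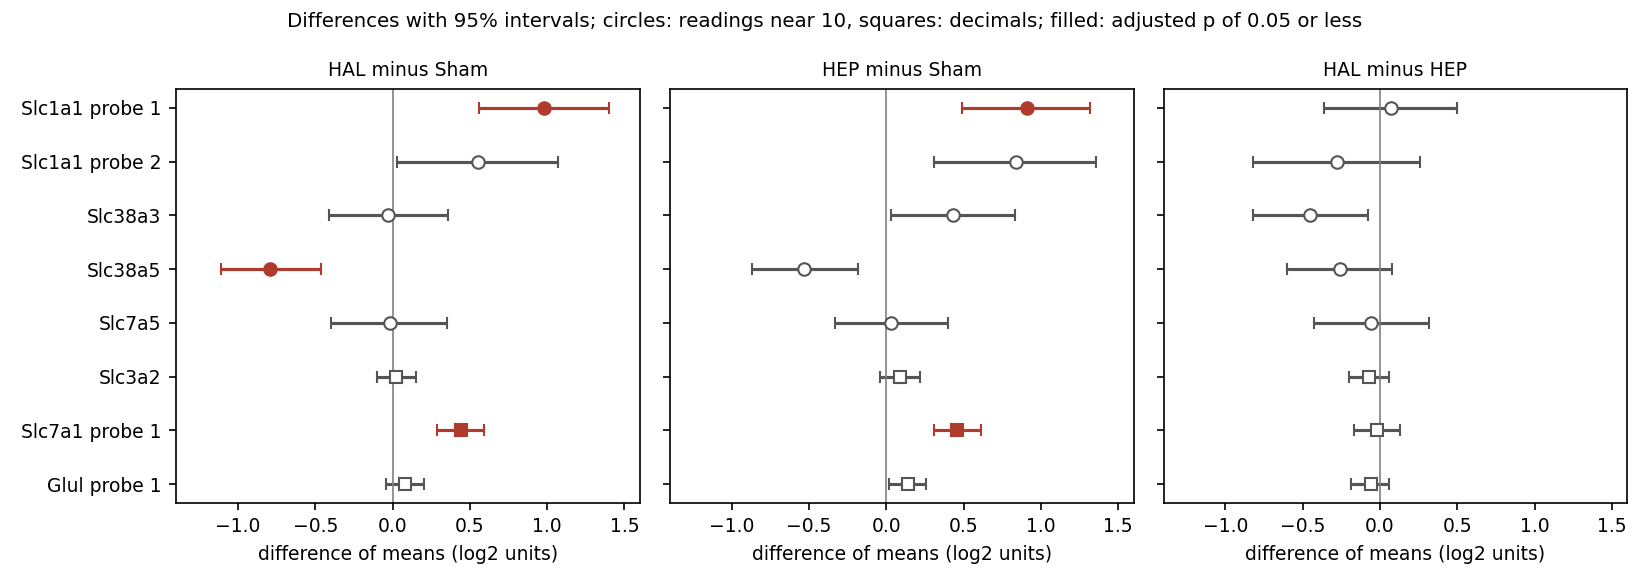
Differences of group means (log2 units) with 95% intervals for the 8 tested member probes in the 3 contrasts; circles are near-10 readings, squares decimals known up to whole units, and filled symbols passed an adjusted p of 0.05. Slc1a1 probe 1 and Slc7a1 probe 1 are filled in both contrasts with Sham, Slc38a5 in HAL minus Sham alone, and nothing is filled in HAL minus HEP.

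Other carriers of amino acids gave few readable values. Of a list of 38 such genes 34 had a probe, and 11 of their 47 probes were tested, 10 of them below 10. In HAL minus Sham 2 passed and in HEP minus Sham 2 passed, and 0 passed in HAL minus HEP. The calls were all higher by decimals, which give differences only up to whole units. Over all tested probes below 10, 6.6%, 3.78% and 1.23% passed in these contrasts. One Slc6a17 probe (1380355_s_at) shifted from mean decimals of 0.58 in Sham to 0.87 in HAL and 0.87 in HEP (differences 0.29 and 0.29, adjusted p = 0.00823 and 0.0109 in limma). Slc6a17 encodes a carrier of neutral amino acids on synaptic vesicles. A second Slc6a17 probe passed in HEP with a difference of 0.24 (adjusted p = 0.0416), a call lost without any one of 11 arrays (Sham 2, 3, 4, 6 or 8 or HEP 1, 2, 4, 5, 6 or 7), when its adjusted p was at most 0.115. The third tested Slc6a17 probe did not pass, with differences of 0.16 in HAL and 0.10 in HEP (adjusted p = 0.158 and 0.517 in limma). Slc6a5, the neuronal glycine carrier, had a difference of 0.22 in HAL (adjusted p = 0.0175), and 0.14 (adjusted p = 0.362) with short cells left out. The only near-10 probe of the list, of Slc3a1, had differences of 0.61 in HAL (adjusted p = 0.34) and 0.27 in HEP (adjusted p = 0.73).

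Of 25 enzymes of glutamate, glutamine and ammonia metabolism 22 had a probe, and 15 of 31 probes were tested. In HAL minus Sham 1 passed, one of 2 tested at or above 10, where 20.4% of all probes passed, and 0 passed in the other contrasts. It was a probe of Glud1 (1370200_at), glutamate dehydrogenase. Its mean decimals were 0.74 in Sham and 0.53 in HAL (difference -0.21, SE 0.07, adjusted p = 0.0217 in limma). This difference is known only up to whole units. The call was lost when HAL array 2 or Sham array 5 or 6 was left out (differences -0.17, -0.18 and -0.18, adjusted p = 0.065, 0.0546 and 0.0531 in limma), with arrays centred (-0.17, adjusted p = 0.0544 in limma) and with short cells left out (-0.12, adjusted p = 0.36 in limma). In HEP it had a difference of -0.17 (adjusted p = 0.0837), which passed without Sham array 8 or HEP array 8 (adjusted p = 0.0434 and 0.0423). A second Glud1 probe, near 10, had differences of -0.27 in HAL (adjusted p = 0.316) and 0.12 in HEP (adjusted p = 0.755).

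Markers of the cell types in the isolates were read beside the members. Each of the 9 endothelial markers with any probe on the array had at least 1 at or above 10 on all arrays. This held for 4 of 8 astrocyte, 3 of 7 pericyte, 2 of 4 smooth muscle, 1 of 5 oligodendrocyte and 1 of 2 red cell markers, and for 0 of 8 neuron, 0 of 6 microglia, 0 of 5 leukocyte, 0 of 4 choroid plexus and 0 of 4 hepatocyte markers. Beside Glul and Slc38a3, which astrocytes express, 0 of 4 tested astrocyte probes passed in any contrast, with median differences of 0.09 in HAL and 0.06 in HEP. The 5 tested endothelial probes had median differences of -0.06 in HAL and 0.01 in HEP. Of these 1 passed in HAL (Slc2a1, the glucose carrier of the barrier, 0.24), 2 in HEP (Slc2a1 0.40 and Abcb1a -0.27) and 2 in HAL minus HEP (Abcb1a 0.28 and Ocln -0.34), all at or above 10, where 20.4%, 13.9% and 3.48% of all probes passed. Among 4 tested microglial probes P2ry12 passed in HAL (-0.29), with a median of 0.07 over the 4. Among 3 tested leukocyte probes Cd3e passed in HAL and HEP (-0.33 and -0.41), with medians of 0.06 and -0.05 over the 3. P2ry12 and Cd3e lie below 10, where 6.6% and 3.78% of all probes passed. The 4 tested neuron probes had median differences of 0.04 in HAL and -0.09 in HEP. For the 2 tested oligodendrocyte probes these were -0.15 and -0.38. In both cell types 0 probes passed in any contrast. Which cells gave the signals of Slc1a1 and Slc38a5 was not tested. Summed marker levels cannot be formed from decimals. The part of cell composition in the members' values was not tested.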

How the data were processed

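The deposited table gives, per the submitters' processing notes, RMA output (log2 signals; version not given in the sources used here). As provided, its 746376 deposited cells are whole numbers of 2 to 9 digits, taken as the decimals of log2 values with integer part and outer zeros lost. Other upstream steps are not given in the sources used here. The labels name a whole-transcript labelling kit, the annotation a 3' expression array.

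Probes were read near 10, or compared by decimals where their mean resultant length reached 0.6. Decimals were placed around the centre of the array's own group, and HAL and HEP means nearest to Sham, before the fit. Group means over 24 arrays were fitted with limma 3.58.1 in R 4.3.3 (eBayes, no trend). P-values were adjusted by Benjamini-Hochberg over all tested probes of each class (2526 near 10, 834 at or above 10, 11531 below 10) and a threshold of 0.05. Intervals use limma's moderated errors. Exact two-sided tests ran over the 12870 divisions of 8 and 8 arrays, or fewer with missing readings. Fisher's test of digit counts and the test of resultant lengths were chosen after seeing the data. The scripts were tested on simulated data, where the decimals fits gave too many small p-values. By construction, decimals turn the direction of a change larger than 0.5. Python 3.11.15 with scipy 1.17.1 was used. The members and lists were chosen with earlier results of these data known. Named are all member probes and list genes that passed in any contrast. The 3 likest near-10 probes of each called near-10 member (at least 18 shared arrays) are named too. Slc3a1, the second Glud1 probe and the third Slc6a17 probe were named after their values were seen. Array number limits the precision.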

Additional observations from a re-analysis of the deposited data

Results flagged for a closer look

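In 36 groups of 6 to 8 readings of member probes, 3 held a value whose gap to its nearest neighbour was large against the range of its group. Chance gives this in about 1 of 20 groups. The Sham array 7 reading of Slc7a5 was 9.70, with the nearest at 10.49 (gap 0.617 of the range, n = 7). For Slc7a1 probe 2 the decimals of Sham array 4 were 0.81, with the nearest at 0.54 (gap 0.528 of the range, n = 8). Sham array 4 also stood out on Glul probe 3, at 1.46 against 1.11 (gap 0.641 of the range, n = 8).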

How the results depend on the processing

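The calls of Slc1a1 probe 1 in both contrasts and of Slc38a5 in HAL held in every other fit that could be run on them. They also held without each array in turn, and were lost only in Fisher's exact test of digit counts. All fits that kept these calls read cells of 8 digits on these probes as 10 plus the decimals. The model of integer parts could have changed this reading, but left it as it was for each such cell. Whether the direction holds under another reading of these cells was therefore not tested. The near-10 member count in HEP was 1 to 2 with 1 array left out. Among members at or above 10 the counts depended on the limit: 0 passed in HAL and 0 in HEP at a limit of 0.7, where Slc7a1 probe 1 is not tested. In HEP 3 passed at 0.5, 3 with short cells missing, 2 with no filter and 2 with array weights, and in HAL minus HEP 2 passed at 0.5 and 1 with no filter. Small differences changed sign. HAL minus Sham became 0.03 for Slc38a3 and 0.03 for Slc7a5 with arrays centred, and 0.06 for Slc7a5 with the model of integer parts, while Slc7a5 had 1 cell of 9 digits more in Sham than in HAL. HAL minus HEP became 0.02 for Slc7a5 with that model, 0.01 for Slc7a1 probe 1 with arrays centred, and 0.01 for Glud1 and 0.02 for Slc6a17 with short cells missing. With 1 array left out, HAL minus Sham ran from -0.19 to 0.09 for Slc38a3, -0.17 to 0.05 for Slc7a5 and -0.01 to 0.05 for Slc3a2, and HEP minus Sham from -0.11 to 0.1 for Slc7a5. HAL minus HEP ran from -0.01 to 0.16 for Slc1a1 probe 1, -0.11 to 0.01 for Slc7a5, -0.08 to 0.02 for Slc7a1 probe 1 and -0.06 to 0.03 for Slc6a17. The cause of these changes was not tested.

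Correlations of the deviations of same-numbered arrays ran from -0.08 to 0.13 near 10 (3 of 24 over 0.1), -0.15 to 0.30 at or above 10 (7 of 24) and -0.10 to 0.21 below 10 (5 of 24), and 4, 5 and 8 of 24 arrays correlated best with their own number. Nothing in the labels pairs the arrays and not every pair exceeded 0.1, so the numbers were not taken to pair them. A pairing that touched only some arrays would not meet this rule. With a replicate block near-10 calls were 75 in HAL, 49 in HEP and 1 in HAL minus HEP, the 3 calls of near-10 members held, and HAL minus HEP of Slc1a1 probe 1 was -0.03. Counts over all probes by decimals moved most without the filter, in HAL to 392 of 1933 at or above 10 and 3748 of 26639 below 10. They also moved with array weights (194 in HEP at or above 10) and short cells missing (696 in HEP below 10). In HAL minus HEP at or above 10 they were 19 without HAL array 2, 19 without HEP array 4 and 51 without HAL array 7. With arrays centred the share of HAL calls that were higher was 45.6% in place of 28.7% near 10, 50.7% in place of 30% at or above 10, and 33.3% in place of 49.5% below 10.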
